A study of Homo sapiens with 6 samples.

Results

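The genes that build cholesterol and fatty acids, and the proteins that switch those genes on and off, were followed in human cardiomyocytes with and without ADPRHL1. The set held 31 genes, taken by symbol from the 28092 rows of the table, with no threshold on a measured value but with earlier results of these data known: 18 enzymes of cholesterol synthesis, 6 genes of sterol sensing and control, and 7 enzymes of fatty acid synthesis. It is a selection and not a full roster of these pathways. The cells came from the human embryonic stem cell line H9, an established line, by differentiation. The KO group comprised 3 samples of ADPRHL1 knockout cardiomyocytes and the WT group 3 samples of wild-type cardiomyocytes, all collected within 3 days after the cells were plated again. No drug or other treatment is named in the labels for either group. The labels do not say how the gene was disrupted, how many knockout clones were used, or whether samples of a group were separate cultures. The p-values therefore reflect only how much these samples vary, and that variation may be technical.

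Cholesterol is made from acetyl-CoA through mevalonate, farnesyl diphosphate and squalene to the sterol ring, while fatty acids are made from the same acetyl-CoA through malonyl-CoA. Most of these genes are targets of the SREBP transcription factors, which sit in the endoplasmic reticulum with their escort SCAP. When sterols are plentiful, INSIG proteins hold SCAP there. When sterols fall, the complex moves to the Golgi, where SREBP is cut free and enters the nucleus. Heart muscle burns far more fatty acid than it makes.

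Levels are given as CPM, estimated counts scaled to library size after TMM normalization, which corrects for library composition. Changes are log2 fold changes of KO over WT, tested with edgeR's quasi-likelihood test and Benjamini-Hochberg adjustment over 19558 tested genes, and a gene passed at an adjusted p below 0.05. Depth was nearly equal, at 21179650 to 21405718 counts per sample, so that 3 counts stood for 0.138 to 0.142 CPM. ADPRHL1 itself stood at 6.40, 5.81 and 7.56 CPM in KO samples, against 83.7, 79.6 and 79.4 CPM in WT samples. All 14 cardiomyocyte markers examined were present and passed as lower, and their summed level was 6800 to 7232 CPM in KO samples, against 21165 to 21494 CPM in WT samples. Of 11 fibroblast markers, 8 passed as higher and 3 as lower, with sums of 15011 to 17782 CPM in KO samples and 11006 to 11272 CPM in WT samples. Sums for the 9 endothelial markers (7 higher, 1 lower) were 351 to 389 CPM in KO and 209.5 to 213 CPM in WT samples, and for the 9 hepatic and endoderm markers (6 higher, 0 lower, 8 tested) 178 to 280.3 CPM in KO and 92.3 to 126 CPM in WT samples. The 6 adipocyte markers summed to 9.91 to 10.5 CPM in KO and 1.08 to 1.37 CPM in WT samples. Of these only FABP4, a fatty acid carrier, had enough counts to be tested, and it passed as higher, at 9.34, 9.32 and 8.65 CPM in KO samples, against 0.567, 0.471 and 0.472 CPM in WT samples. No marker of these lists was at 0 in all samples. In bulk RNA, fewer cells of a type and less RNA per cell cannot be told apart. The part of these marker differences in the results below was not tested.

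Most of the sterol and fatty acid genes differed little between KO and WT cells. All 31 were tested, since even the scarcest had 110 estimated counts or more in every sample and the most abundant reached 7066. Of the 31, 11 passed as higher in KO cells and 4 as lower, while 16 did not pass. These 15 calls are 48.4% of the set, against 57% of all genes tested. Among the 12382 tested genes at or above the lowest mean level of the set, 64.7% passed. Calls of higher level made up 35.5% of the set and 28.4% of all genes, and calls of lower level 12.9% of the set and 28.6% of all genes. The 3 KO samples lay wholly above or below the 3 WT samples for 16 of the 31 genes (51.6%), against 64.4% of all genes tested.

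Few of the changes were large. In all, 3 of the 31 genes (9.68%) passed and changed by at least 1.5-fold, namely INSIG1, ACLY and STARD4, against 28.2% of all genes tested. The median absolute log2 fold change was 0.15 over the 31 genes and 0.38 over all genes. Among the 12382 genes with a mean of at least 5.96 CPM, the lowest mean within the set, it was 0.29, and 21.1% passed and changed by at least 1.5-fold. The signed median over the 31 genes was 0.03, since 19 had positive and 12 negative estimates. For 28 of the 31 genes the estimate lay within 0.5 of 0 on the log2 scale.

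**Figure D1:**
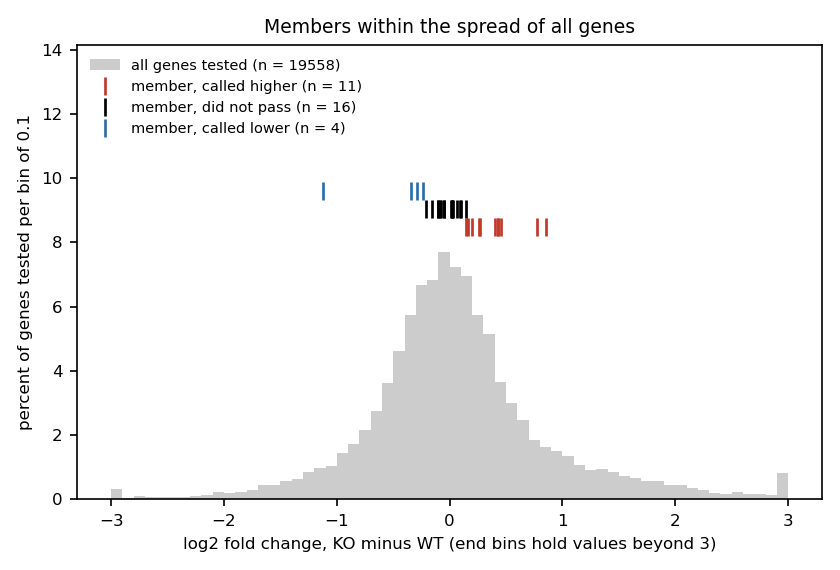
Log2 fold change of KO over WT (x axis) against the percent of the 19558 tested genes in each bin of 0.1 (y axis, grey bars). Ticks above mark the 31 sterol and fatty acid genes, 11 higher (red), 16 not passed (black) and 4 lower (blue), and all but INSIG1, ACLY and STARD4 sit within 0.5 of 0.

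**Figure D2:**
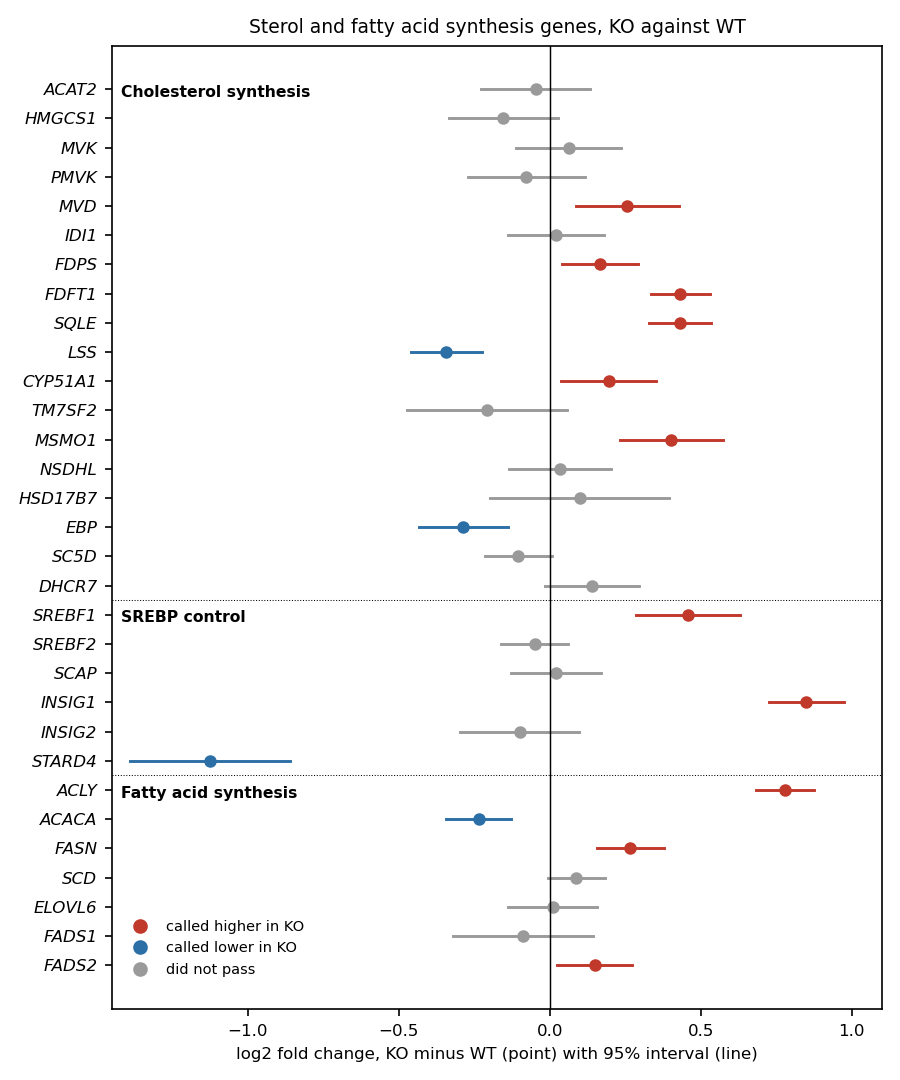
Log2 fold change of KO over WT (points) with its 95% interval (lines, x axis) for the 31 genes in pathway order down the page, red where higher, blue where lower and grey where the test was not passed. INSIG1 at 0.85 and STARD4 at -1.13 mark the ends, and the interval of LSS lies on the other side of 0 from those of SQLE and CYP51A1 next to it.

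Sterol sensing and control held both extremes of the set, in opposite directions. INSIG1, on chromosome 7 at 155297878 to 155310235 (RefSeq, GRCh38.p14), encodes the protein that holds SCAP in the endoplasmic reticulum and is itself an SREBP target. It stood at 63.8, 66.9 and 61.1 CPM in KO samples, against 34.4, 35.6 and 36.5 CPM in WT samples. Every KO sample was far above every WT sample, and the level rose 1.80-fold (log2 fold change 0.85, SE 0.0567, adjusted p = 7.70e-08). STARD4, on chromosome 5 at 111496033 to 111512535, encodes a soluble carrier that moves cholesterol between membranes and is also a known SREBP target. Its level was 29.7, 23.7 and 21.8 CPM in KO samples, against 58.7, 49.4 and 56.2 CPM in WT samples. The groups were again wholly apart, and STARD4 fell to 0.458 of its WT level (log2 fold change -1.13, SE 0.115, adjusted p = 5.66e-05).

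The transcription factors differed from each other. SREBF1, which encodes the SREBP best known for fatty acid genes, had 18.5, 19.1 and 18.9 CPM in KO samples, against 14.6, 13.7 and 12.9 CPM in WT samples. It was higher in every KO sample (log2 fold change 0.46, SE 0.0795, adjusted p = 3.46e-04). Its known transcript forms start at different promoters and were not told apart here. SREBF2, which encodes the SREBP best known for cholesterol genes, had 174, 163 and 172 CPM in KO samples, against 184, 176 and 167 CPM in WT samples. Those groups overlapped, and the log2 fold change of -0.05 did not pass (95% interval -0.16 to 0.06, adjusted p = 0.428).

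The escort and the second INSIG gene did not pass either. SCAP had 84.5, 78.3 and 96.4 CPM in KO samples, against 86.6, 84.5 and 84.2 CPM in WT samples. The KO samples spread on both sides of the WT samples (log2 fold change 0.02, 95% interval -0.13 to 0.17, adjusted p = 0.809). INSIG2, a close relative of INSIG1, had 16.8, 16.9 and 15.98 CPM in KO samples, against 17.2, 16.1 and 19.97 CPM in WT samples. Its groups overlapped too (log2 fold change -0.10, 95% interval -0.30 to 0.10, adjusted p = 0.368), so of the 6 control genes 2 passed as higher, 1 as lower and 3 did not pass. For all genes tested the shares were 28.4% higher and 28.6% lower.

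The promoter sequences of 5 genes are shown because they span the responses seen: INSIG1 and MSMO1 rose, STARD4 and LSS fell, and SREBF2 did not pass. Each runs from 250 bases before to 50 bases after the annotated start, 5′ to 3′ on the strand of the gene, as RefSeq gives it on GRCh38.p14. Capitals mark the CCAAT box, bound by NF-Y, a known partner of SREBP (CCAAT, or ATTGG where it lies on the other strand), and the letters TCACNCCAC of the SREBP site as searched here, on either strand.
INSIG1, chr7:155297628-155297927, plus strand: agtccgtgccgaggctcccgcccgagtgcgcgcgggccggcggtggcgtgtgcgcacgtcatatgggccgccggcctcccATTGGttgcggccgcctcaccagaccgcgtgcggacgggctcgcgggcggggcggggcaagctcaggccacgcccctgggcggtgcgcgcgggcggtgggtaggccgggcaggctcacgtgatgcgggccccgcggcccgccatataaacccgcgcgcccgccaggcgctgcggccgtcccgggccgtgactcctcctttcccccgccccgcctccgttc
MSMO1, chr4:165327419-165327718, plus strand: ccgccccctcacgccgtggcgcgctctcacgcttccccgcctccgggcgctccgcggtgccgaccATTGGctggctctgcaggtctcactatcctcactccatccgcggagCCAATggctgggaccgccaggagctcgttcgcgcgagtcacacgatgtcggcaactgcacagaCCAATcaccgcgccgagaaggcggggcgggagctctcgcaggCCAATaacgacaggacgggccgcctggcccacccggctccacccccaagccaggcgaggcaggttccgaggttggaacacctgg
STARD4, chr5:111512486-111512785, minus strand: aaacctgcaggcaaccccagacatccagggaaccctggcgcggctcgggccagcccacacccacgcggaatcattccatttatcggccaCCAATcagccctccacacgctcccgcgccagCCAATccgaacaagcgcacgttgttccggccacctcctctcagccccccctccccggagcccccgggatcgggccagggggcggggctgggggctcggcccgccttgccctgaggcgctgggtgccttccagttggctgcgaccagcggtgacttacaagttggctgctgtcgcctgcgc
LSS, chr21:46228725-46229024, minus strand: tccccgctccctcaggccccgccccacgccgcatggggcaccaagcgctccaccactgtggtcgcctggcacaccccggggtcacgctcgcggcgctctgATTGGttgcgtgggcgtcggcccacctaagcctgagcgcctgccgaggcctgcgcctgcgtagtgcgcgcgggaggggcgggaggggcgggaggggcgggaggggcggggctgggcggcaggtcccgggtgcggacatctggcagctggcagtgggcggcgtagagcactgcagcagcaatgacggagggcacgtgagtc
SREBF2, chr22:41832855-41833154, plus strand: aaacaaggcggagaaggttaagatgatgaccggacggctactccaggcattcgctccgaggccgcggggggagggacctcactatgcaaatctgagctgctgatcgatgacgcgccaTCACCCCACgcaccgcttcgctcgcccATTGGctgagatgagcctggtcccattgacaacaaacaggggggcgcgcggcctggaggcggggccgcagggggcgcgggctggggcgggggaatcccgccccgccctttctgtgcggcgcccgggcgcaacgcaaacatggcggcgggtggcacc

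Promoter letters were shared by genes that moved in opposite directions. RefSeq windows were matched by symbol for 27 of the 31 genes (37 windows, each gene counted once), but not for FASN, FDFT1, ACAT2 and SQLE. A CCAAT box on either strand stood in the windows of 20 of those 27 genes (74.1%), against 39.7% of the 27305 genes with a window. It was found in 6 of the 8 genes that rose, in 4 of 4 that fell and in 10 of 15 that did not pass. In IDI1 and NSDHL a match on one strand overlapped a match on the other. The GC box GGGCGG, on either strand, was in 26 of 27 (96.3%), against 48.3% of all genes. The E-box CACGTG was in 4 of 27 (14.8%), namely SC5D, LSS, SCAP and INSIG1, against 8.78% of all genes. The SREBP site as spelled above was in the SREBF2 window alone (3.70%), 133 bases before the start, against 1.39% of all genes. The printed MSMO1 window held 4 CCAAT boxes and that of STARD4 held 2, while INSIG1, LSS and SREBF2 each had 1. The shares for all genes cover every gene with a window, tested here or not. They were not matched to the set by expression or gene type, so the gaps need not be particular to it. These matches are letters within a window and show neither binding nor its absence.

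Cholesterol synthesis showed small shifts in both directions. Of its 18 enzymes, 6 passed as higher (FDFT1, SQLE, MSMO1, MVD, CYP51A1 and FDPS), 2 as lower (LSS and EBP), and 10 did not pass. Over all genes tested, 28.4% passed as higher and 28.6% as lower. The median log2 fold change was 0.05 and the largest rise was 1.35-fold. Genes that rose stood both before and after the closure of the sterol ring, among others that did not pass.

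Among the early enzymes of the set, which act between acetyl-CoA and the isoprene units, 5 did not pass. The enzyme that forms mevalonate is not in the set. ACAT2, which joins acetyl-CoA units, averaged 21.6 ± 1.21 CPM in KO samples and 22.3 ± 2.03 CPM in WT samples (SD, n = 3 each, as for all values below), with a log2 fold change of -0.05 (95% interval -0.23 to 0.13). HMGCS1, which makes HMG-CoA, averaged 130.8 ± 15.6 CPM in KO samples and 145 ± 6.82 CPM in WT samples, with a log2 fold change of -0.15 (95% interval -0.33 to 0.03). Neither passed, and KO sample 3 held the lowest level of both. For MVK, the mevalonate kinase, the means were 19.5 ± 1.43 CPM in KO and 18.6 ± 0.835 CPM in WT samples (log2 fold change 0.06, 95% interval -0.11 to 0.24). For PMVK, which adds the next phosphate, they were 13.003 ± 0.673 CPM in KO and 13.7 ± 0.778 CPM in WT samples (log2 fold change -0.08, 95% interval -0.27 to 0.12). Neither kinase passed. IDI1, the isomerase that readies the isoprene units for joining, averaged 66.1 ± 5.82 CPM in KO and 65.1 ± 4.58 CPM in WT samples (log2 fold change 0.02, 95% interval -0.14 to 0.18).

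MVD and FDPS, the enzymes just before and after IDI1, showed small rises. MVD, the decarboxylase, had 30.1, 29.7 and 31.5 CPM in KO samples, against 28.1, 25.5 and 22.9 CPM in WT samples. The groups did not overlap (log2 fold change 0.26, SE 0.0786, adjusted p = 0.0142), but without WT sample 3 the call was lost (log2 fold change 0.17, adjusted p = 0.0822). FDPS, which makes farnesyl diphosphate, had 80.9, 71.1 and 80.8 CPM in KO samples, against 69.4, 69.5 and 68.6 CPM in WT samples. KO sample 2 lay just above the WT samples (log2 fold change 0.17, SE 0.0578, adjusted p = 0.0271). The FDPS call was lost without any one of KO samples 1 and 3 or WT samples 1, 2 and 3 (adjusted p 0.0752 to 0.111).

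The rises of smallest p in this pathway were in the enzymes that make and oxidise squalene. FDFT1, the squalene synthase that commits farnesyl diphosphate to sterols, had 330.0, 311 and 322 CPM in KO samples, against 238, 237 and 239 CPM in WT samples. The gap between the groups was several times the spread within either (1.35-fold, log2 fold change 0.43, SE 0.0449, adjusted p = 4.75e-06). SQLE, the squalene epoxidase and a rate-limiting step, had 131, 131 and 124 CPM in KO samples, against 97.3, 94.1 and 95.9 CPM in WT samples. It too was higher in every KO sample (log2 fold change 0.43, SE 0.0472, adjusted p = 7.46e-06).

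The enzyme directly after SQLE moved the other way. LSS, which closes squalene epoxide into lanosterol, the first sterol, had 75.3, 72.3 and 70.5 CPM in KO samples, against 95.3, 94.6 and 86.7 CPM in WT samples. All KO samples were below all WT samples (log2 fold change -0.34, SE 0.0539, adjusted p = 1.56e-04). CYP51A1, the demethylase that follows LSS, had 72.0, 73.6 and 61.9 CPM in KO samples, against 61.3, 56.4 and 63.7 CPM in WT samples. It passed narrowly although the groups overlapped, with KO sample 3 below WT sample 3 (log2 fold change 0.19, SE 0.0714, adjusted p = 0.0349). That call was lost without any one of KO samples 1 and 2 or WT samples 1 and 2 (adjusted p 0.0861 to 0.160). TM7SF2, a sterol reductase of the next step, was scarce at 7.27 ± 0.388 CPM in KO and 8.40 ± 0.915 CPM in WT samples and did not pass (log2 fold change -0.21, 95% interval -0.47 to 0.06).

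The complex that removes methyl groups from the ring was uneven. MSMO1, the methyl sterol oxidase, had 63.0, 61.4 and 51.1 CPM in KO samples, against 44.1, 42.3 and 46.4 CPM in WT samples. Even KO sample 3, the lowest of its group, stood above all WT samples (log2 fold change 0.40, SE 0.0779, adjusted p = 9.38e-04). The 2 enzymes that act with it did not pass. NSDHL, the decarboxylating dehydrogenase, averaged 27.7 ± 2.43 CPM in KO and 27.0 ± 1.44 CPM in WT samples (log2 fold change 0.03, 95% interval -0.14 to 0.20). HSD17B7, the ketosteroid reductase, averaged 6.17 ± 0.225 CPM in KO and 5.76 ± 0.681 CPM in WT samples (log2 fold change 0.10, 95% interval -0.20 to 0.39).

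Of the late steps that rearrange and reduce the double bonds, 1 passed. EBP, the sterol isomerase, had 26.3, 24.0 and 26.5 CPM in KO samples, against 29.9, 31.2 and 32.5 CPM in WT samples. It was lower in every KO sample (log2 fold change -0.29, SE 0.0680, adjusted p = 0.00321). SC5D, the desaturase after EBP, averaged 99.97 ± 5.21 CPM in KO and 107.5 ± 1.82 CPM in WT samples (log2 fold change -0.10, 95% interval -0.22 to 0.01), and its KO samples were all below its WT samples without passing. DHCR7, the reductase whose loss causes Smith-Lemli-Opitz syndrome, averaged 37.2 ± 3.23 CPM in KO and 33.8 ± 1.38 CPM in WT samples (log2 fold change 0.14, 95% interval -0.01 to 0.30). These 2 and HMGCS1 lay near the threshold. With 1 KO sample left out, each passed: HMGCS1 without KO sample 1 (log2 fold change -0.24, adjusted p = 0.0123), SC5D without KO sample 2 (-0.15, 0.0239) and DHCR7 without KO sample 3 (0.19, 0.0460).

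Fatty acid synthesis also held calls in both directions. ACLY, on chromosome 17 at 41866917 to 41930545, splits citrate to supply the acetyl-CoA that both pathways use. Its level was 271, 275 and 284 CPM in KO samples, against 163, 160.3 and 160.4 CPM in WT samples. The samples of each group lay close together and the groups far apart (1.72-fold, log2 fold change 0.78, SE 0.0444, adjusted p = 1.69e-08). ACACA, the acetyl-CoA carboxylase that commits acetyl-CoA to fatty acids, had 55.2, 54.0 and 56.9 CPM in KO samples, against 65.8, 65.1 and 64.6 CPM in WT samples. It was lower in every KO sample (log2 fold change -0.24, SE 0.0491, adjusted p = 0.00131). FASN, the synthase that uses the product of ACACA, had 271, 273 and 289 CPM in KO samples, against 233, 241 and 219 CPM in WT samples. It was higher in every KO sample (log2 fold change 0.27, SE 0.0513, adjusted p = 7.50e-04), so that ACLY and FASN rose on either side of a fall in ACACA.

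The enzymes of the set that lengthen and desaturate fatty acids differed little. FADS2, a desaturase of polyunsaturated fatty acids, had 124, 108 and 111 CPM in KO samples, against 106, 104 and 100.1 CPM in WT samples. The groups did not overlap, but the rise was small (log2 fold change 0.15, SE 0.0569, adjusted p = 0.0412) and the call was lost without any one of KO sample 1 or WT samples 1, 2 and 3 (adjusted p 0.0914 to 0.209). SCD, the desaturase that makes oleate, averaged 236 ± 3.77 CPM in KO and 222 ± 4.16 CPM in WT samples, with all KO samples above all WT samples, but did not pass (log2 fold change 0.09, 95% interval -0.01 to 0.18, adjusted p = 0.105). ELOVL6, the elongase that lengthens palmitate, averaged 59.0 ± 5.38 CPM in KO and 58.6 ± 2.35 CPM in WT samples (log2 fold change 0.01, 95% interval -0.14 to 0.16). FADS1, the desaturase paired with FADS2, averaged 42.9 ± 5.98 CPM in KO and 45.6 ± 3.42 CPM in WT samples (log2 fold change -0.09, 95% interval -0.32 to 0.14). Neither ELOVL6 nor FADS1 passed, which leaves 3 of the 7 fatty acid genes higher, 1 lower and 3 not passed, with a median log2 fold change of 0.09. The shares over all genes tested were 28.4% higher and 28.6% lower.

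**Figure D3:**
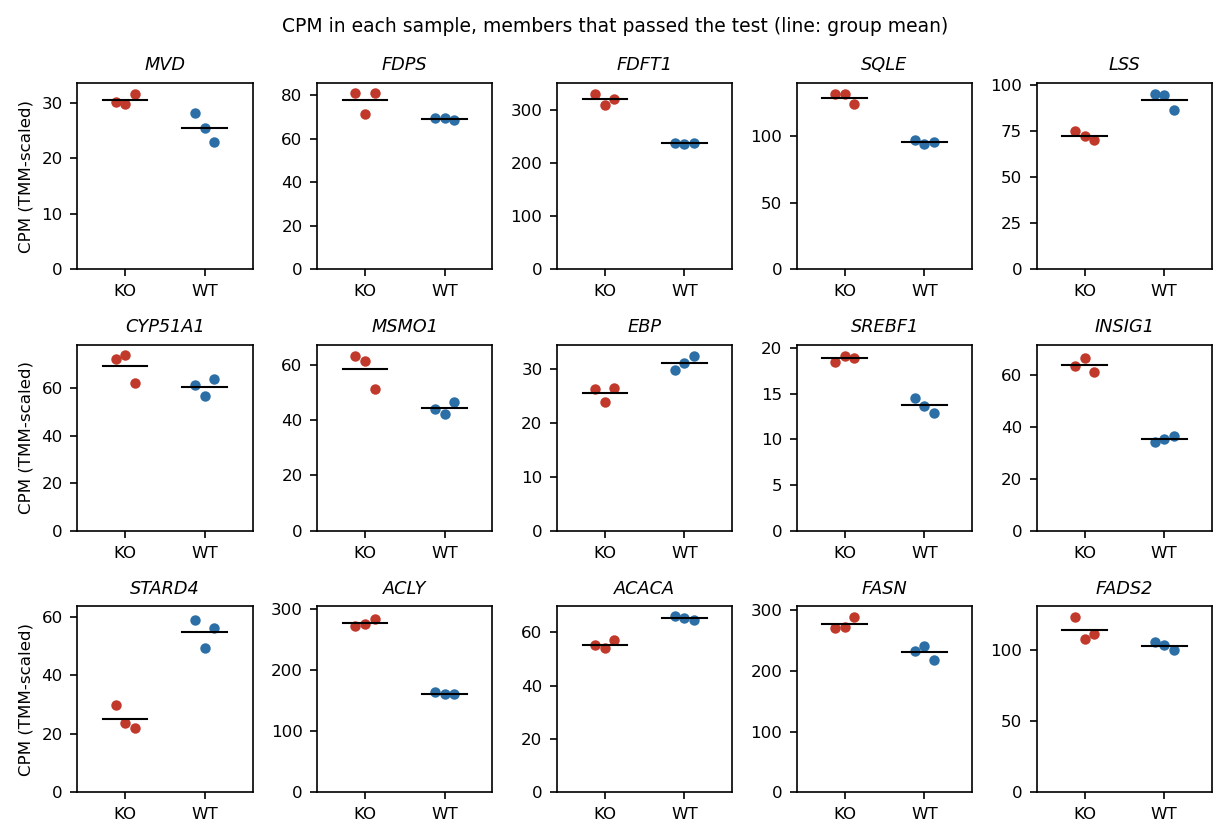
CPM (y axis, from 0) in each of the 3 KO (red) and 3 WT (blue) samples for the 15 genes that passed, with a line at each group mean. The groups are apart in every panel except CYP51A1, where KO sample 3 at 61.9 CPM lies below WT sample 3 at 63.7 CPM.

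The 16 genes that did not pass were bounded rather than shown equal. Their estimates ran from -0.21 to 0.14 on the log2 scale, and their 95% intervals reached from -0.47 to 0.39 at the widest. The median SE over all 31 genes was 0.0714.

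Levels between genes were compared per transcript length, as FPKM from the deposited values. The most abundant products in KO samples were ACLY at 64.9 ± 1.80 FPKM, FDFT1 at 63.2 ± 1.47 FPKM and FDPS at 58.4 ± 5.11 FPKM. In WT samples FDPS at 49.7 ± 1.26 FPKM and FDFT1 at 46.95 ± 0.251 FPKM led, with ACLY in place 6 at 37.3 ± 0.304 FPKM. Neighbours in this order differed by less than the larger of their SDs among these 3 genes in KO samples, but FDPS and FDFT1 differed by more than that in WT samples. The scarcest in KO samples were HSD17B7 at 4.01 FPKM, TM7SF2 at 4.61 FPKM and SREBF1 at 5.38 FPKM, and the same 3 genes were scarcest in WT samples, at 3.597, 5.26 and 4.15 FPKM. INSIG1 took place 16 of 31 in KO samples at 19.0 ± 1.44 FPKM and place 25 in WT samples at 10.6 ± 0.307 FPKM. STARD4 took place 27 in KO samples at 6.30 ± 0.717 FPKM and place 20 in WT samples at 12.8 ± 0.925 FPKM. Each gene other than ACLY, INSIG1 and STARD4 stood within 4 places of its WT rank.

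**Figure D4:**
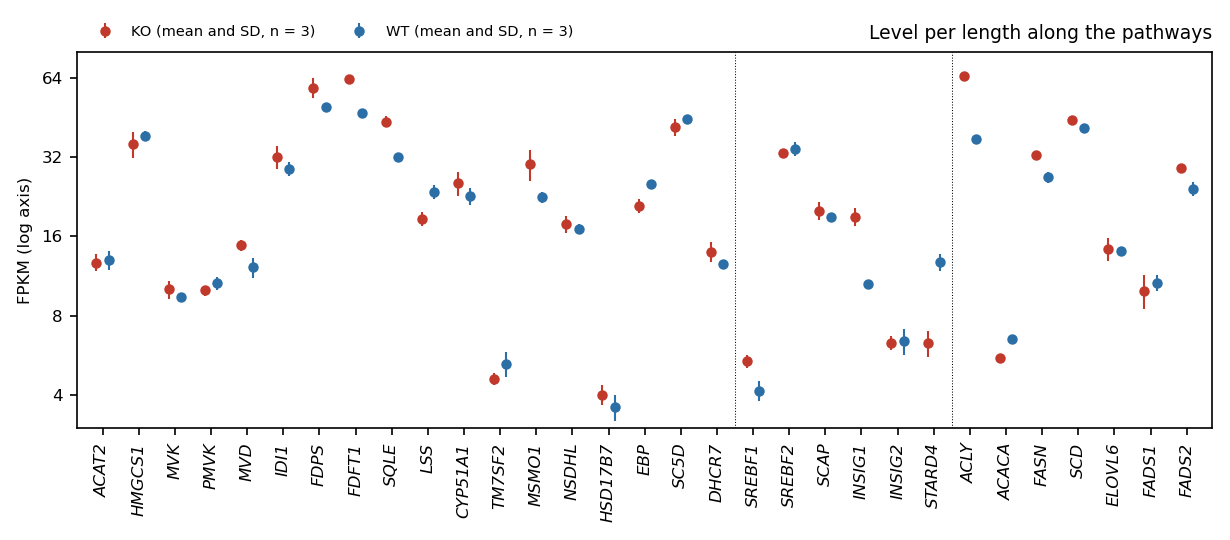
FPKM on a log axis for the 31 genes in pathway order along the x axis, as mean and SD of 3 KO (red) and 3 WT (blue) samples, with dotted lines between cholesterol synthesis, SREBP control and fatty acid synthesis. ACLY leads in KO samples at 64.9 FPKM, and HSD17B7 is lowest in both groups at 4.01 FPKM in KO and 3.597 FPKM in WT samples.

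The deposited counts carried further detail on how reads were assigned. The length implied by count and FPKM differed between the groups by at most 0.11 on the log2 scale for any of the 31 genes, the most for IDI1 (2078 bases in KO and 2238 bases in WT samples) and SREBF1 (3533 bases in KO and 3282 bases in WT samples). Counts were whole numbers in all 6 samples for just 3 genes, NSDHL, ACLY and FASN. For the other 28 at least 1 deposited count was not whole, and how the authors arrived at such counts is not given in the sources used here. In GENCODE, 20 of the 31 genes are overlapped by another gene, 18 of them on the opposite strand, and 6 by a protein-coding gene on the opposite strand (ACAT2, MVK, SREBF1, ACACA, FADS1 and FADS2). No source used here says whether strand was used in counting, so reads that fall within such an overlap may belong to either gene. The overlap is 1055 bases for SREBF1 with RAI1 and 16723 bases for ACACA with C17orf78, introns included. For FADS2 with FADS1 it is 29694 bases in GENCODE. In RefSeq these genes overlap far less, with FADS1 at 61799627 to 61817003 and FADS2 at 61816203 to 61867354 on chromosome 11. Strand does not separate genes on the same strand. In GENCODE, the called CYP51A1 shares 22645 bases with a protein-coding model on its own strand (AC000120.2), and FADS2 shares 4265 bases with FEN1.

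Within the KO group the cholesterol genes were mostly highest in the same sample. KO sample 1 was the highest of the 3 KO samples for 12 of the 18 cholesterol enzymes (66.7%) and the lowest for 0, whereas over all genes tested it was the highest for 31.01% and the lowest for 31.7%. KO sample 3 was the lowest for 10 of the 18 (55.6%), against 34.9% of all genes. KO sample 2 was the lowest for 8 (44.4%), against 33.4% of all genes. The median deviation of the 18 genes from their KO mean was 0.06 in KO sample 1, -0.02 in KO sample 2 and -0.05 in KO sample 3 on the log2 scale. In WT samples 1, 2 and 3 it was 0.02, -0.0084 and 0.0037. Within the WT group, WT sample 3 was the highest for 9 of the 18 (50%), against 34.2% of all genes, and the lowest for 6. KO sample 3 was the lowest of its group for HMGCS1, IDI1, CYP51A1 and MSMO1, among others. This pattern was noticed in the data and was not tested.

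**Figure D5:**
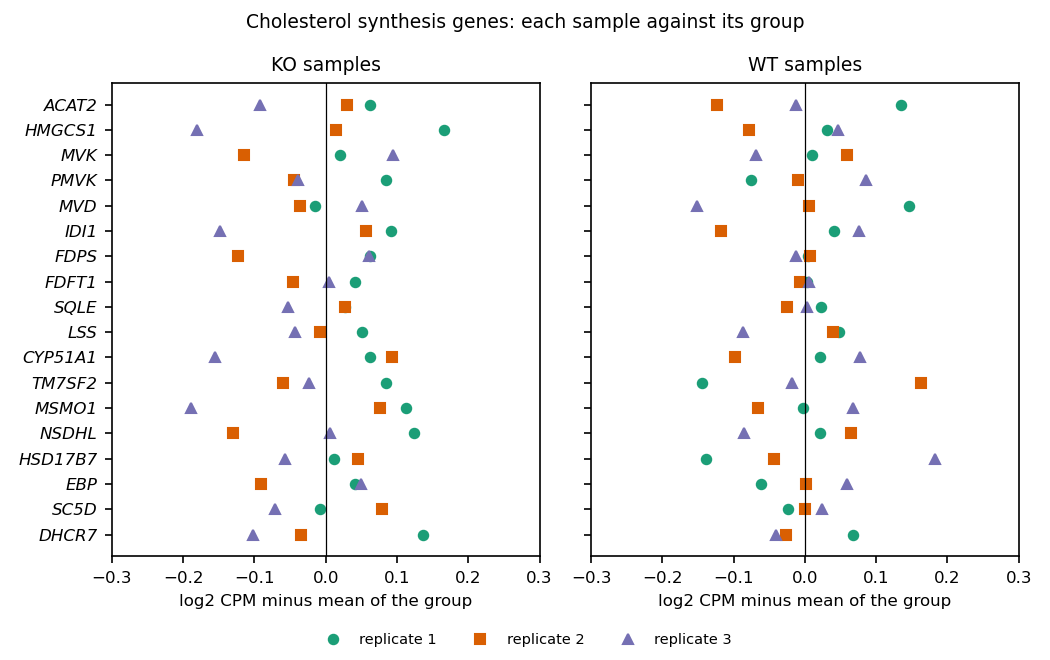
Log2 CPM of each sample minus the mean of its own group (x axis) for the 18 cholesterol enzymes down the page, with KO samples in the left panel and WT samples in the right. KO sample 1 (circles) is never the lowest of its group, and KO sample 3 (triangles) is the lowest for 10 of the 18.

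Genes that act around the 31 were taken as 7 further lists, to be read against the 57% of all genes that passed. In SREBP processing and sterol-regulated degradation, 6 of 11 genes passed as higher and 4 as lower, with a median log2 fold change of 0.20. FAF2, which helps extract proteins of the endoplasmic reticulum for degradation, averaged 84.0 ± 1.45 CPM in KO and 69.4 ± 0.268 CPM in WT samples (log2 fold change 0.28, adjusted p = 2.68e-04). PAQR3, a Golgi anchor reported for SCAP and SREBP, averaged 15.5 ± 0.606 CPM in KO and 22.4 ± 1.396 CPM in WT samples (-0.54, adjusted p = 8.17e-05). The protease MBTPS2, which makes the second cut in SREBP, averaged 39.6 ± 1.45 CPM in KO and 49.1 ± 1.37 CPM in WT samples (-0.31, adjusted p = 4.49e-04). Among the genes named, FAF2 thus passed upward, and PAQR3 and MBTPS2 downward.

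Among the 11 genes of the isoprenoid branch and prenylation, 3 passed as higher, 1 as lower and 7 did not pass (median log2 fold change -0.09). NUS1, a subunit of the enzyme that makes dolichol precursors, averaged 82.4 ± 2.89 CPM in KO and 66.9 ± 2.47 CPM in WT samples (0.30, adjusted p = 3.08e-04). RABGGTA, a subunit of the Rab prenyltransferase, averaged 21.6 ± 0.605 CPM in KO and 16.9 ± 1.29 CPM in WT samples (0.35, adjusted p = 0.00224). PGGT1B, a subunit of a prenyltransferase, averaged 24.0 ± 0.830 CPM in KO and 28.5 ± 1.24 CPM in WT samples (-0.25, adjusted p = 0.00628). This branch, which leaves the cholesterol route at farnesyl diphosphate, was mostly without a call.

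Sterol transport, esterification and oxysterols had 17 of 18 genes tested, of which 6 passed as higher, 1 as lower and 10 did not pass (median log2 fold change 0.08). NPC2, which hands cholesterol out of lysosomes, averaged 125 ± 8.82 CPM in KO and 80.9 ± 1.055 CPM in WT samples (0.63, adjusted p = 1.14e-06). GRAMD1B, which moves cholesterol from the plasma membrane to the endoplasmic reticulum, averaged 59.99 ± 3.83 CPM in KO and 38.1 ± 0.647 CPM in WT samples (0.66, adjusted p = 1.42e-06). CYP27A1, a sterol hydroxylase, averaged 11.2 ± 0.497 CPM in KO and 13.2 ± 0.677 CPM in WT samples (-0.24, adjusted p = 0.0401). Of these carriers NPC2 and GRAMD1B were thus higher in KO cells, opposite to STARD4.

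LXR receptors, which sense oxysterols, and their targets had 8 genes, of which 2 passed as higher, 1 as lower and 5 did not pass (median log2 fold change 0.06). NR1H2, the widely expressed LXR, averaged 47.3 ± 1.20 CPM in KO and 28.0 ± 1.599 CPM in WT samples (0.75, adjusted p = 5.28e-07). PLTP, a phospholipid transfer protein, averaged 52.7 ± 3.25 CPM in KO and 39.1 ± 1.28 CPM in WT samples (0.43, adjusted p = 6.66e-05). MYLIP, a ubiquitin ligase that is an LXR target, averaged 66.0 ± 3.16 CPM in KO and 85.2 ± 3.19 CPM in WT samples (-0.37, adjusted p = 9.07e-05). Of the LXR targets listed, PLTP thus passed upward and MYLIP downward, and the others did not pass. For PLTP the rise was larger per length, with a log2 ratio of mean FPKM of 0.92. The implied length of PLTP was 2129 bases in KO and 2950 bases in WT samples.

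Among acetyl-CoA supply and lipogenic regulators, 8 of 9 genes were tested and each passed, 6 as higher and 2 as lower (median log2 fold change 0.40). MID1IP1, which promotes the activity of acetyl-CoA carboxylase, averaged 38.4 ± 1.13 CPM in KO and 26.1 ± 0.604 CPM in WT samples (0.56, adjusted p = 6.42e-06). PGD, an NADPH-making enzyme of the pentose phosphate pathway, averaged 228 ± 11.6 CPM in KO and 169 ± 4.96 CPM in WT samples (0.43, adjusted p = 1.38e-05). ACACB, the mitochondrial acetyl-CoA carboxylase whose product restrains fatty acid entry into mitochondria and which is the main form in heart muscle, averaged 24.7 ± 1.17 CPM in KO and 70.2 ± 1.64 CPM in WT samples (-1.51, adjusted p = 4.25e-10). ACSS2, which makes acetyl-CoA from acetate, averaged 45.2 ± 2.18 CPM in KO and 55.9 ± 2.02 CPM in WT samples (-0.31, adjusted p = 5.70e-04). Both carboxylase genes were thus lower in KO cells, ACACA (-0.24) by far less than ACACB (-1.51). The cardiomyocyte markers were also lower in these samples (14 of 14), and a link to either gene was not tested.

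Fatty acid elongation, desaturation and activation had 16 of 18 genes tested, of which 5 passed as higher, 4 as lower and 7 did not pass (median log2 fold change 0.03). ELOVL1, an elongase of very long chains, averaged 92.6 ± 3.16 CPM in KO and 47.9 ± 2.34 CPM in WT samples (0.95, adjusted p = 1.72e-08). ACSL5, an acyl-CoA synthetase, averaged 15.97 ± 2.66 CPM in KO and 7.03 ± 1.64 CPM in WT samples (1.18, adjusted p = 3.11e-04). HACD1, a dehydratase of elongation known from muscle, averaged 37.9 ± 1.47 CPM in KO and 68.8 ± 1.91 CPM in WT samples (-0.86, adjusted p = 4.39e-08). HACD2, its relative, averaged 32.9 ± 1.22 CPM in KO and 46.9 ± 1.117 CPM in WT samples (-0.51, adjusted p = 8.78e-06). Elongation genes thus passed in both directions. The ACSL5 rise was larger per length, with a log2 ratio of mean FPKM of 1.86. Its implied length was 3264 bases in KO and 5045 bases in WT samples.

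Glycerolipid synthesis, which turns fatty acids into phospholipid and triglyceride, had 11 of 13 genes tested, with 3 higher, 2 lower and 6 not passed (median log2 fold change -0.05). AGPAT2, an acyltransferase, averaged 36.7 ± 3.88 CPM in KO and 25.6 ± 1.62 CPM in WT samples (0.52, adjusted p = 1.82e-04). Its relative AGPAT1 averaged 62.9 ± 0.323 CPM in KO and 71.5 ± 4.11 CPM in WT samples (-0.18, adjusted p = 0.0110). Among the lipin phosphatases, LPIN2 averaged 42.0 ± 2.85 CPM in KO and 34.1 ± 2.85 CPM in WT samples (0.30, adjusted p = 0.00397), and LPIN3 averaged 12.7 ± 0.670 CPM in KO and 18.6 ± 0.543 CPM in WT samples (-0.55, adjusted p = 8.92e-05). Close relatives thus passed in opposite directions in this list. For LPIN2 the log2 ratio of mean FPKM was 0.94, since its implied length was 9175 bases in KO and 13995 bases in WT samples.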

How the data were processed

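RNA was extracted with Trizol, selected with oligo-dT and sequenced from 3 KO and 3 WT samples, per the labels' protocols. The authors deposited 1 table with an estimated count and an expression value per gene and sample, and group means that were not used. Of the deposited estimated counts above 0, 10.9 to 12.0% per sample were whole, and counts were rounded before testing. Expression values in the deposited table fit FPKM by their relation to count and depth, although the header names no unit. Per the submitters' processing notes the genome build was hg38. Which aligner, counter and annotation were used is not given in the sources used here.

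Counts were tested with edgeR 4.0.16 in R 4.3.3 (filterByExpr with minimum count 10 and total 15, TMM, robust quasi-likelihood, genotype alone), with Benjamini-Hochberg adjustment over 19558 genes and a threshold of 0.05. The common biological coefficient of variation was 0.0791. Standard errors and 95% intervals derive from the F statistic and are approximate. Between replicates, chi-square over its degrees of freedom was 3.37 to 6.81, above sampling noise. Alternatives used DESeq2 1.42.0, limma 3.58.1, other scalings and filters, FPKM, named rows only, the replicate number as a term and each sample left out.

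Members, lists and naming rules were chosen with earlier results of these data known. All 31 members are named. Per-sample values are given for control genes and called genes, group means for the others. In each other list the 2 called genes of smallest p in each direction are named. The result of 1 such gene is not reported here, although the counts include it. Genes and promoter windows were matched by symbol to RefSeq, and overlaps come from GENCODE 29.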

Additional observations from a re-analysis of the deposited data

How the results depend on the processing

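Each result was recomputed under 17 alternatives. Of 527 values for single genes of the set, 482 kept direction and side of the threshold. The calls of FDFT1, SQLE, LSS, MSMO1, EBP, SREBF1, INSIG1, STARD4, ACLY, ACACA and FASN held under all 17. Those of CYP51A1, FDPS, FADS2 and MVD were lost under 9, 7, 6 and 2 alternatives. With DESeq2, which lost these 4 (adjusted p 0.0819, 0.0809, 0.0907 and 0.0579), 7 genes of the set passed as higher in place of 11. With the 4 lower calls that is 35.5% of the set, against 40.8% of the 23753 genes with an adjusted p from DESeq2 and 47.9% of the 19558 genes tested with edgeR. SCD passed with upper-quartile scaling (log2 fold change 0.12, adjusted p = 0.0318) and with total-count scaling (0.11, 0.0486). Leaving out 1 sample gave 8 to 11 members higher and 4 to 5 lower, and 4978 to 5240 genes higher and 5084 to 5416 lower over all genes.

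Direction turned only for genes that did not pass in either case. ELOVL6 was at -0.0035 with DESeq2, and without a filter on low counts ELOVL6 was at -0.019, IDI1 at -0.0079 and SCAP at -0.0076. With 1 sample left out, log2 fold changes ranged from -0.0427 to 0.0894 for IDI1, -0.0384 to 0.0814 for ELOVL6, -0.0348 to 0.0931 for NSDHL, -0.0672 to 0.0843 for SCAP, -0.114 to 0.0099 for ACAT2 and -0.157 to 0.0186 for FADS1. The cause was not tested.

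Samples with the same replicate number did not deviate together (correlations 0.0225, -0.0081 and -0.0135), and not every sample correlated best with its own number, so the numbers were not taken as pairs. With the replicate number as a block, 10 members passed as higher and 4 as lower, and 5290 and 5412 genes over all; CYP51A1 lost its call (adjusted p = 0.0534).

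With 3 samples a group, small log2 changes could not be called with certainty. Of 2 genes with an SE at the median of 0.0714, CYP51A1 passed narrowly at 0.19 (edgeR adjusted p = 0.0349). DHCR7 did not pass at 0.14 (edgeR adjusted p = 0.111). Overlapping genes, the unstated strand use and the lower cardiomyocyte markers in KO samples limit what each value stands for.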
